A study of Mus musculus with 2 samples.

Results

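The genes described here encode the receptors that bind glutamate, their partner proteins and the transporters that load it into vesicles. They were 28 of the 32285 genes in the deposited single-cell count matrices, listed by name, with earlier results of these data known. The AMPA receptor subunits were *Gria1* to *Gria4*, and the kainate receptor subunits *Grik1* to *Grik5*, with the auxiliary proteins *Neto1* and *Neto2*. The NMDA receptor subunits were *Grin1*, *Grin2a* to *Grin2d*, *Grin3a* and *Grin3b*, and the delta receptor was *Grid1*. The metabotropic receptors were *Grm2* to *Grm8*, and the vesicular glutamate transporters *Slc17a6* and *Slc17a7*. The libraries came from the brains of 2 embryos at E16.5 (embryonic day 16.5), numbered 4 and 5. Both were wild-type (WT) control animals of the EomesMllt3 cross, made with the *Eomes*-Cre mouse line, and the study's methods give C57BL/6J as the mouse strain. The labels name the tissue as brain hemispheres and the dissected part as cortex, and do not say whether a control embryo carried Cre. Both libraries held 1 condition, so no treatment or mutant was compared, and the comparisons are between cell classes of the same embryos.

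Glutamate is the main excitatory transmitter of the cortex. AMPA, kainate and NMDA receptors are ion channels built of 4 subunits, so the subunit genes a cell uses set the properties of its channels, while the metabotropic receptors act through G proteins. Immature neurons meet glutamate before most synapses exist, and the receptors are known for roles in the migration of interneurons and in the maturation of the first synapses.

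Cells were grouped by marker genes, without the 28 genes and their families, into classes named by the cell they resembled, which is why each name ends in -like. The classes compared were radial glial cell (RGC)-like (1339 cells in embryo 4 and 1440 in embryo 5), intermediate progenitor (IPC)-like (914 and 939), immature excitatory neuron-like (1368 and 1367), upper-layer neuron-like (633 and 781), deep-layer neuron-like (1162 and 1218), Cajal-Retzius-like (61 and 67), and interneuron-like of the medial (MGE, 687 and 655) and caudal (CGE, 334 and 394) ganglionic eminence. An LGE-type neuron-like class (384 and 254), for the lateral ganglionic eminence, and a ventral progenitor-like class (228 and 284) were measured too. Of the kept cells, 27.1% and 27.5% stayed without a name. The GABAergic genes *Gad1*, *Gad2* and *Slc32a1* summed to between 1169 and 1303 CPM (counts per 1000000 UMIs) in the 2 interneuron-like classes and to at most 12.4 CPM in the RGC-like, IPC-like, excitatory and Cajal-Retzius-like ones, while ventral progenitor-like cells had 278 and 373 CPM. Haemoglobin-related genes, which mark red blood cells, summed to between 176 and 440.0 CPM in embryo 4 and between 306 and 653 CPM in embryo 5 over the 10 classes, so every class held some counts of transcripts from other cells.

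Most of these genes differed in level between the classes. A level here is the sum of a gene's unique molecular identifiers (UMIs, 1 per captured transcript) in a class and embryo, per 1000000 UMIs of that sum. The libraries tag the 3′ ends of transcripts, so levels were compared for 1 gene between classes and not between genes. Over the 10 classes, 7 genes were highest in MGE interneuron-like cells (*Gria1*, *Gria4*, *Grik1*, *Grik2*, *Grm3*, *Grm5* and *Neto1*), 5 in CGE interneuron-like cells (*Grik3*, *Grin2d*, *Grin3b*, *Grm4* and *Grm8*), 4 each in deep-layer neuron-like (*Gria3*, *Grin2b*, *Neto2* and *Slc17a7*), Cajal-Retzius-like (*Grik4*, *Grin1*, *Grin2a* and *Grm2*) and LGE-type neuron-like cells (*Grik5*, *Grin3a*, *Grid1* and *Grm7*), and 1 each in upper-layer neuron-like (*Gria2*), immature excitatory neuron-like (*Slc17a6*), IPC-like (*Grin2c*) and ventral progenitor-like cells (*Grm6*). For *Grik4*, *Grin2a*, *Grin3b*, *Grid1*, *Grm4* and *Grm6* the ranges of the 2 embryos in the highest and the next class overlapped. The place of *Grm6* rests on 1 UMI in embryo 4 and 0 in embryo 5. The count of genes at 10 CPM or more in both embryos went from 10 in RGC-like, 11 in IPC-like and 11 in immature excitatory neuron-like cells to 16 in upper-layer and 16 in deep-layer neuron-like cells, 18 in MGE and 19 in CGE interneuron-like cells and 20 in Cajal-Retzius-like cells. Summed over the 28 genes, MGE interneuron-like cells held 12262 and 12795 CPM, against 2111 and 2227 CPM in RGC-like cells. Such a sum follows the genes with most counts: *Gria1* and *Gria4* had means of 3339 and 2722 CPM in MGE interneuron-like cells.

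**Figure D1:**
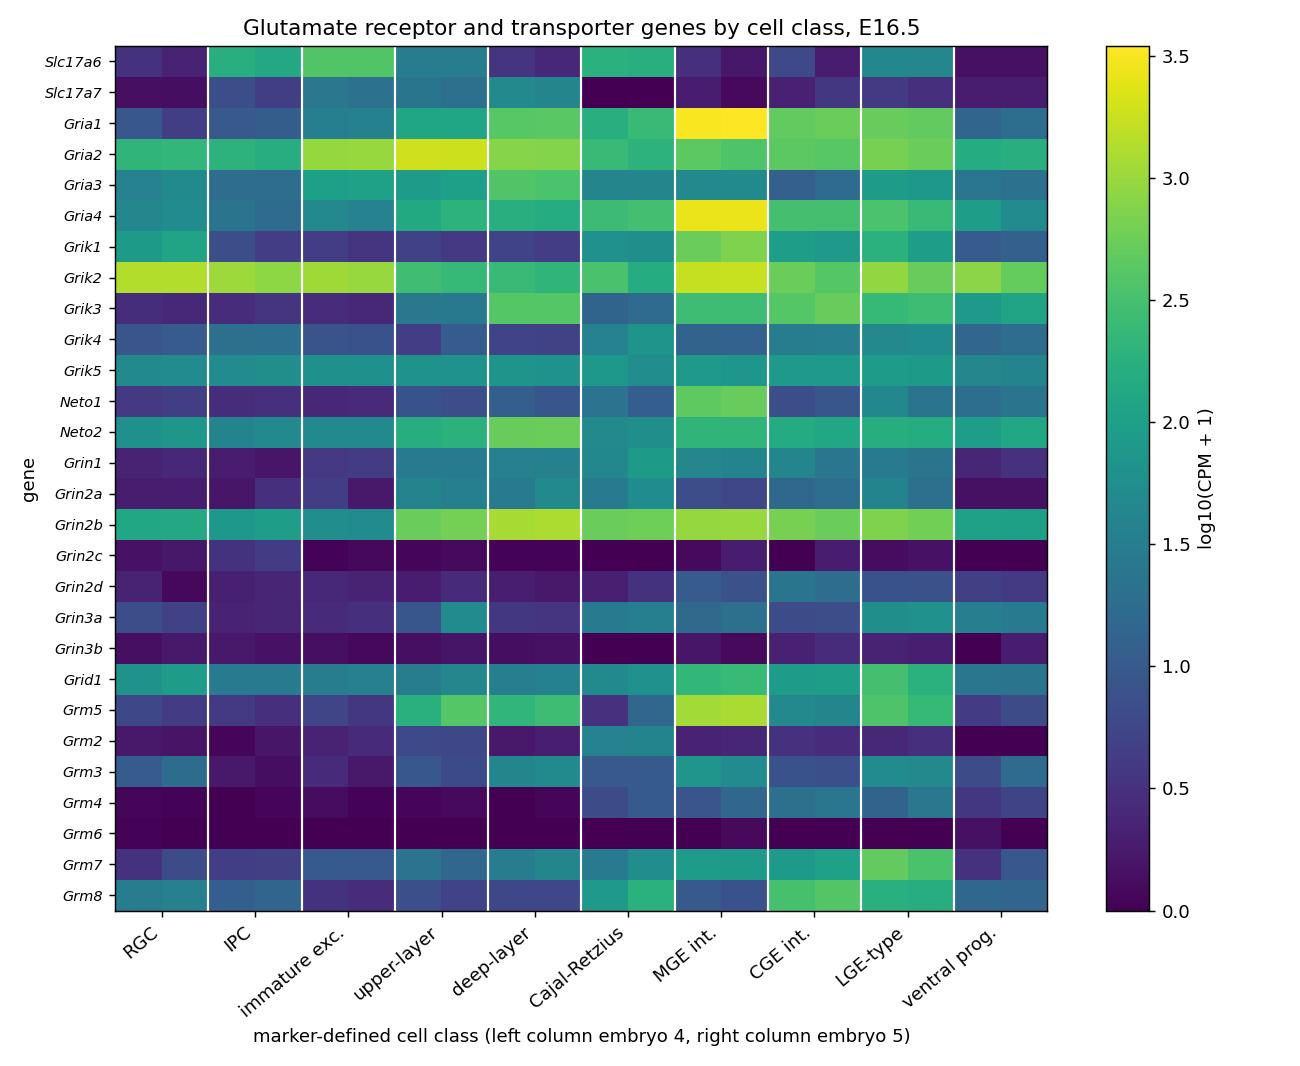
Levels of the 28 genes, as log10(CPM + 1), in 10 marker-defined cell classes, with embryo 4 in the left and embryo 5 in the right column of each class. *Gria1* and *Gria4* are brightest in MGE interneuron-like cells, *Gria2* in upper-layer neuron-like cells, and *Grm6* stays near 0 in every class.

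In the following, a gene is called where edgeR's quasi-likelihood test on the sums per embryo and class gave an adjusted p under 0.05 (Benjamini-Hochberg over 15919 genes), and ± is the standard error (SE) of a log2 fold change. Of the 28 genes, 26 had enough counts to be tested. *Grin3b*, an NMDA subunit, had 107 UMIs and *Grm6*, a receptor best known from the retina, had 6 UMIs over all kept cells of both embryos, named or not. Neither was tested. From RGC-like to excitatory neuron-like cells, taken as the mean of the log levels of the immature, upper-layer and deep-layer classes, 16 of the 26 genes were higher and 6 lower, where 36.6% of all genes tested were called higher and 35.5% lower, 72.0% in all. Their median log2 fold change was 1.47, against 0.02 over all genes. From RGC-like to IPC-like cells, 5 were higher and 8 lower, with 22.2% and 23.3% of all genes called, 45.4% in all, and the median was -0.58, against -0.01 over all genes.

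Between neuron classes the calls spread as widely. In interneuron-like against excitatory neuron-like cells, 16 genes were higher and 4 lower (19.0% and 22.4% of all genes, 41.5% in all), with a median of 1.45 against -0.02 over all genes. In MGE against CGE interneuron-like cells, 11 were higher and 3 lower, where 6.17% and 6.75% of all genes were called, 12.9% in all, with a median of 0.34 against 0.00. In deep-layer against upper-layer neuron-like cells, 8 were higher and 4 lower (15.1% and 13.4% of all genes, 28.5% in all), with a median of 0.07 against 0.02. With at least 2000 detected genes per cell, 16 were higher and 3 lower, at Leiden resolution 2 there were 15 and 3, and with no doublets removed 14 and 3. In Cajal-Retzius-like against excitatory neuron-like cells, 13 were higher and 7 lower (17.0% and 20.1% of all genes, 37.1% in all), with a median of 0.46 against -0.10 over all genes, and with DESeq2's size factors the latter shifted to 0.01. Higher calls made up 45.8% of all genes called in this last comparison and 55.8% with those size factors. The same excitatory sums enter the comparisons with RGC-like, interneuron-like and Cajal-Retzius-like cells, and the same RGC-like sums enter both lineage comparisons, so these results are not independent of each other. All p-values rest on the spread between the 2 embryos within a class, pooled over all classes fitted jointly. Sums of different classes from the same embryo were treated as independent in that fit. The size of a p-value thus does not measure the spread between animals in the compared classes alone. Every called gene had the same sign in each embryo alone, except *Grm3* between excitatory neuron-like and RGC-like cells.

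The vesicular transporters were highest in different excitatory classes. *Slc17a6*, which encodes VGLUT2, peaked in newly formed neurons, and *Slc17a7*, which encodes VGLUT1, the main transporter of the mature cortex, was highest in deep-layer neuron-like cells. Because these 2 genes had the largest log2 fold changes of the 26 genes in the excitatory and the IPC-like comparison with RGC-like cells, the 250 bases before their annotated starts are shown (RefSeq, GRCm38.p6, plus strand), with the sequence CAGATG or its reverse complement CATCTG, a form of the E-box bound by proneural factors, searched on both strands and set in capitals. The *Slc17a6* entries cover chr7:51621580-51621829 and, for a start inside the gene, chr7:51624387-51624636, and the *Slc17a7* entry covers chr7:45163671-45163920.
Slc17a6, first start: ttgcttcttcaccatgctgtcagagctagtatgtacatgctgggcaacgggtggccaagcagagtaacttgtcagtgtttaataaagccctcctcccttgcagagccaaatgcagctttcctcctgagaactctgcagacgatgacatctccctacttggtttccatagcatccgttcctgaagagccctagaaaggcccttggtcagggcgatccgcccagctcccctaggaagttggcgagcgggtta
Slc17a6, start inside the gene: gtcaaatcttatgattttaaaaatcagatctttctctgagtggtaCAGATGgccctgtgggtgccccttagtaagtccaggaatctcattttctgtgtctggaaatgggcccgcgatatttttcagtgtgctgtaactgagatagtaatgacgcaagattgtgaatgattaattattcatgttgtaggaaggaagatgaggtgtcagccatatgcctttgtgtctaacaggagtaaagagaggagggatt
Slc17a7: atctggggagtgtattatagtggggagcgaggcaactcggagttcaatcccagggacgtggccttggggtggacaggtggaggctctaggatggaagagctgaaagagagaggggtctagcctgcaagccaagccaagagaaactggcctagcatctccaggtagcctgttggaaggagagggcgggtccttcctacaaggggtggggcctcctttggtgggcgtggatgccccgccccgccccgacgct
The capitals appear once, before the inner start of *Slc17a6*. Windows were found for 18 of the 28 genes, some with several starts, and 2 of their 23 windows held the 6 letters, against 14.4% of 32851 windows of this length over all genes.

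*Slc17a6* was at 2.27 and 1.15 CPM in RGC-like cells of embryos 4 and 5, at 163 and 134 CPM in IPC-like, 373 and 378 CPM in immature, 29.5 and 30.5 CPM in upper-layer and 2.57 and 1.58 CPM in deep-layer neuron-like cells. It thus appeared in the IPC-like class, was highest in immature neurons, and in deep-layer neuron-like cells overlapped the RGC-like range. At least 1 UMI was found in 87.0% (95% exact interval 85.1 to 88.7) and 86.5% (84.6 to 88.3) of immature excitatory neuron-like cells, against 1.46% (0.70 to 2.66) and 0.458% (0.095 to 1.33) of MGE interneuron-like cells, which should lack it. With every cell thinned to 2000 UMIs the shares in immature neurons were 52.3% and 48.1%, and 0.296% and 0.155% in MGE interneuron-like cells; these intervals and shares cover counting error only. The gene rose by 6.48 ± 0.21 on the log2 scale from RGC-like to IPC-like cells (edgeR adjusted p = 1.98e-14), and was lower in deep-layer than in upper-layer neuron-like cells by a log2 fold change of -3.76 ± 0.23 (edgeR adjusted p = 2.74e-10).

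*Slc17a7* was at 0.401 and 0.337 CPM in RGC-like, 6.15 and 3.59 CPM in IPC-like, 24.5 and 20.5 CPM in immature, 23.1 and 19.1 CPM in upper-layer and 44.95 and 39.9 CPM in deep-layer neuron-like cells. Immature and upper-layer neuron-like cells overlapped, and both lay below the deep-layer class. The gene was higher in excitatory neuron-like than in RGC-like cells by 6.37 ± 0.26 (edgeR adjusted p = 8.07e-14) and in deep-layer than in upper-layer neuron-like cells by 1.08 ± 0.16 (edgeR adjusted p = 3.78e-05). Its rise of 3.74 ± 0.38 from RGC-like to IPC-like cells was not found when no doublets were removed, where the log2 fold change was -0.28.

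Cajal-Retzius-like cells, the early-born *Reln*+ neurons of the marginal zone, had *Slc17a6* and no detected *Slc17a7*. They had 184 and 173 CPM of the first, second to the immature neurons among the named classes, and not a single UMI of *Slc17a7* in 61 and 67 cells. Among the cells without a name, the cluster led by *Nts* had more *Slc17a6*, 266 and 219 CPM in 238 and 351 cells. For *Slc17a7* in Cajal-Retzius-like cells, the exact intervals reach up to 5.87% and 5.36% of cells with a UMI, and set no limit on the share of cells that express the gene. Against the 28.7 CPM of the excitatory classes together, *Slc17a7* was at least 17.2-fold lower in Cajal-Retzius-like cells, with 3 counts over both embryos as the floor. *Slc17a6* was higher in Cajal-Retzius-like cells than in the mean of the excitatory classes by 2.33 ± 0.16 on the log2 scale. That mean is taken over log levels. The geometric mean of the excitatory classes was 28.3 CPM and their arithmetic mean 136 CPM, and the immature class, at a mean of 376 CPM, lay above Cajal-Retzius-like cells. Interneuron-like cells were lower than the mean of the excitatory classes in both genes, by log2 fold changes of -3.99 ± 0.27 for *Slc17a6* and -4.82 ± 0.25 for *Slc17a7*. For *Slc17a6* they were not lower than every excitatory class: their 3.60 and 0.80 CPM overlapped the 2.57 and 1.58 CPM of deep-layer neuron-like cells. LGE-type neuron-like cells had 43.8 and 42.4 CPM of *Slc17a6*, and *Gad1*, *Gad2* and *Slc32a1* there summed to 941 and 1207 CPM.

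**Figure D2:**
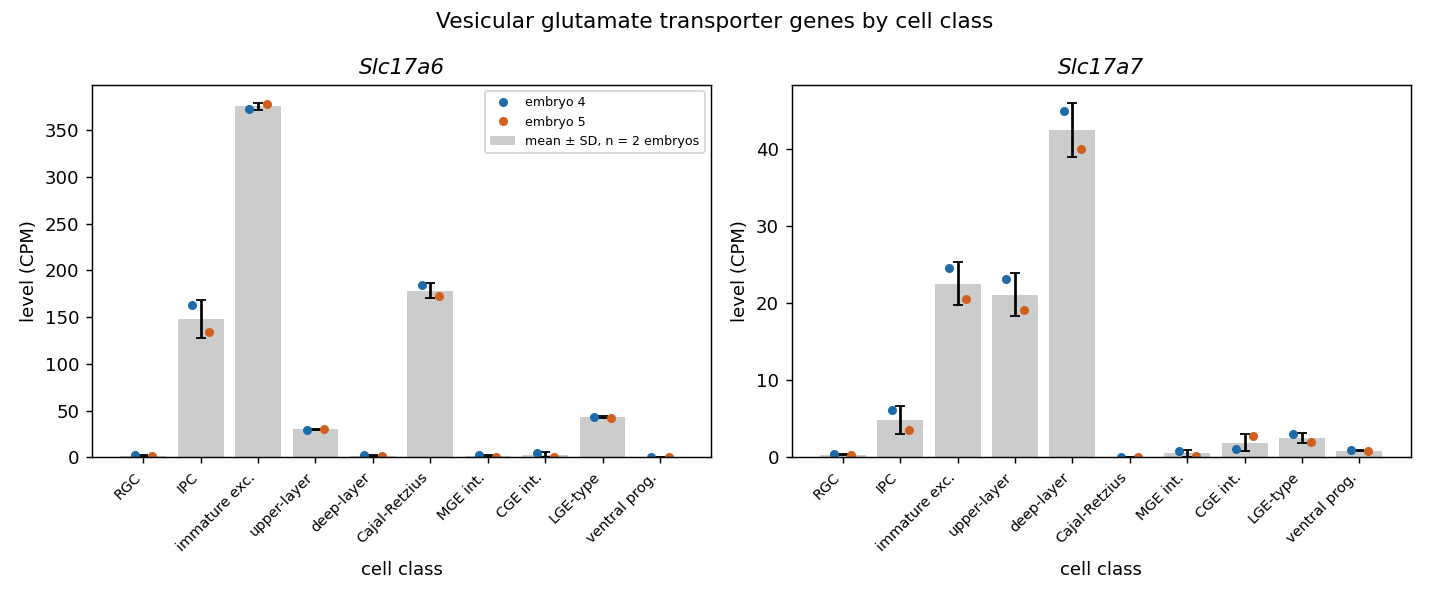
Levels of *Slc17a6* and *Slc17a7* in CPM by cell class, with bars for the mean, error bars for the SD of 2 embryos and points for each embryo. *Slc17a6* peaks in immature excitatory neuron-like cells at 373 and 378 CPM, and *Slc17a7* in deep-layer neuron-like cells at 44.95 and 39.9 CPM.

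The 4 AMPA subunits, which carry most fast excitatory transmission, divided the neuron classes between them. Among the named classes, *Gria1* and *Gria4* were highest in MGE interneuron-like, *Gria2* in upper-layer and *Gria3* in deep-layer neuron-like cells. All 4 rose from RGC-like to excitatory neuron-like cells, by 4.58 ± 0.21 (*Gria1*), 2.64 ± 0.11 (*Gria2*), 2.11 ± 0.10 (*Gria3*) and 1.39 ± 0.17 (*Gria4*) on the log2 scale. In IPC-like against RGC-like cells, by contrast, *Gria3* and *Gria4* were lower, by -1.18 ± 0.13 and -1.21 ± 0.22, while *Gria2* was not called at -0.23. *Gria1* was higher by 0.70 ± 0.28 (edgeR adjusted p = 0.0472), with 0.12 in embryo 4 and 1.45 in embryo 5 alone.

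*Gria1*, whose product GluA1 is known from synaptic plasticity, was at 8.23 and 3.58 CPM in RGC-like, 8.59 and 9.91 CPM in IPC-like, 32.4 and 34.6 CPM in immature, 119 and 123 CPM in upper-layer, and 416 and 435 CPM in deep-layer neuron-like cells. It had 3212 and 3467 CPM in MGE and 492 and 548 CPM in CGE interneuron-like cells. MGE interneuron-like cells lay far above all other classes, and the IPC-like, immature, upper-layer and deep-layer classes did not overlap. A UMI of it was found in 97.1% and 98.5% of MGE interneuron-like cells and in 4.63% and 2.78% of RGC-like cells. *Gria1* was higher in interneuron-like than in excitatory neuron-like cells by 3.30 ± 0.12 (edgeR adjusted p = 1.51e-14), in MGE than in CGE interneuron-like cells by 2.76 ± 0.18 (edgeR adjusted p = 2.17e-09), and in deep-layer than in upper-layer neuron-like cells by 1.88 ± 0.18 (edgeR adjusted p = 1.29e-07).

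*Gria4*, whose product GluA4 is known from fast-spiking interneurons of the adult, had 2748 and 2696 CPM in MGE interneuron-like cells, 310 and 309 CPM in CGE interneuron-like cells, and 267 and 307 CPM in Cajal-Retzius-like cells. Upper-layer and deep-layer neuron-like cells had 139 to 191 CPM of it and overlapped. It was higher in MGE than in CGE interneuron-like cells by 3.21 ± 0.20 and in interneuron-like than in excitatory neuron-like cells by 3.005 ± 0.13, and was not called between the layers, at a log2 fold change of 0.01.

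*Gria2* encodes GluA2, the subunit that after RNA editing keeps calcium out of the channel. It was at 208 and 219 CPM in RGC-like, 950 and 971 CPM in immature, 1942 and 1853 CPM in upper-layer and 790 and 768 CPM in deep-layer neuron-like cells. Interneuron-like cells had 363 to 450 CPM and Cajal-Retzius-like cells 248 and 194 CPM. Among the cells without a name, the largest cluster, of 1775 cells and led by *Nrp1*, had 1832 and 1790 CPM, close to the upper-layer level. So the gene moved against *Gria1* between these neurons: *Gria2* was lower in interneuron-like than in excitatory neuron-like cells (-1.59 ± 0.08, edgeR adjusted p = 2.69e-12), lower in deep-layer than in upper-layer neuron-like cells (-1.22 ± 0.11, edgeR adjusted p = 9.34e-08) and lower in Cajal-Retzius-like than in excitatory neuron-like cells (-2.65 ± 0.12, edgeR adjusted p = 1.51e-12). Between MGE and CGE interneuron-like cells it was not called, at -0.03.

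*Gria3* had 381 and 349 CPM in deep-layer neuron-like cells and at most 104 CPM in each of the other 9 classes. It was higher in deep-layer than in upper-layer neuron-like cells by 2.02 ± 0.11, and lower than in excitatory neuron-like cells both in interneuron-like (-2.73 ± 0.10) and in Cajal-Retzius-like cells (-2.22 ± 0.16). Among interneuron-like cells, it was higher in the MGE class, with 45.1 and 46.3 CPM, than in the CGE class, with 11.2 and 16.4 CPM (1.77 ± 0.20).

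**Figure D3:**
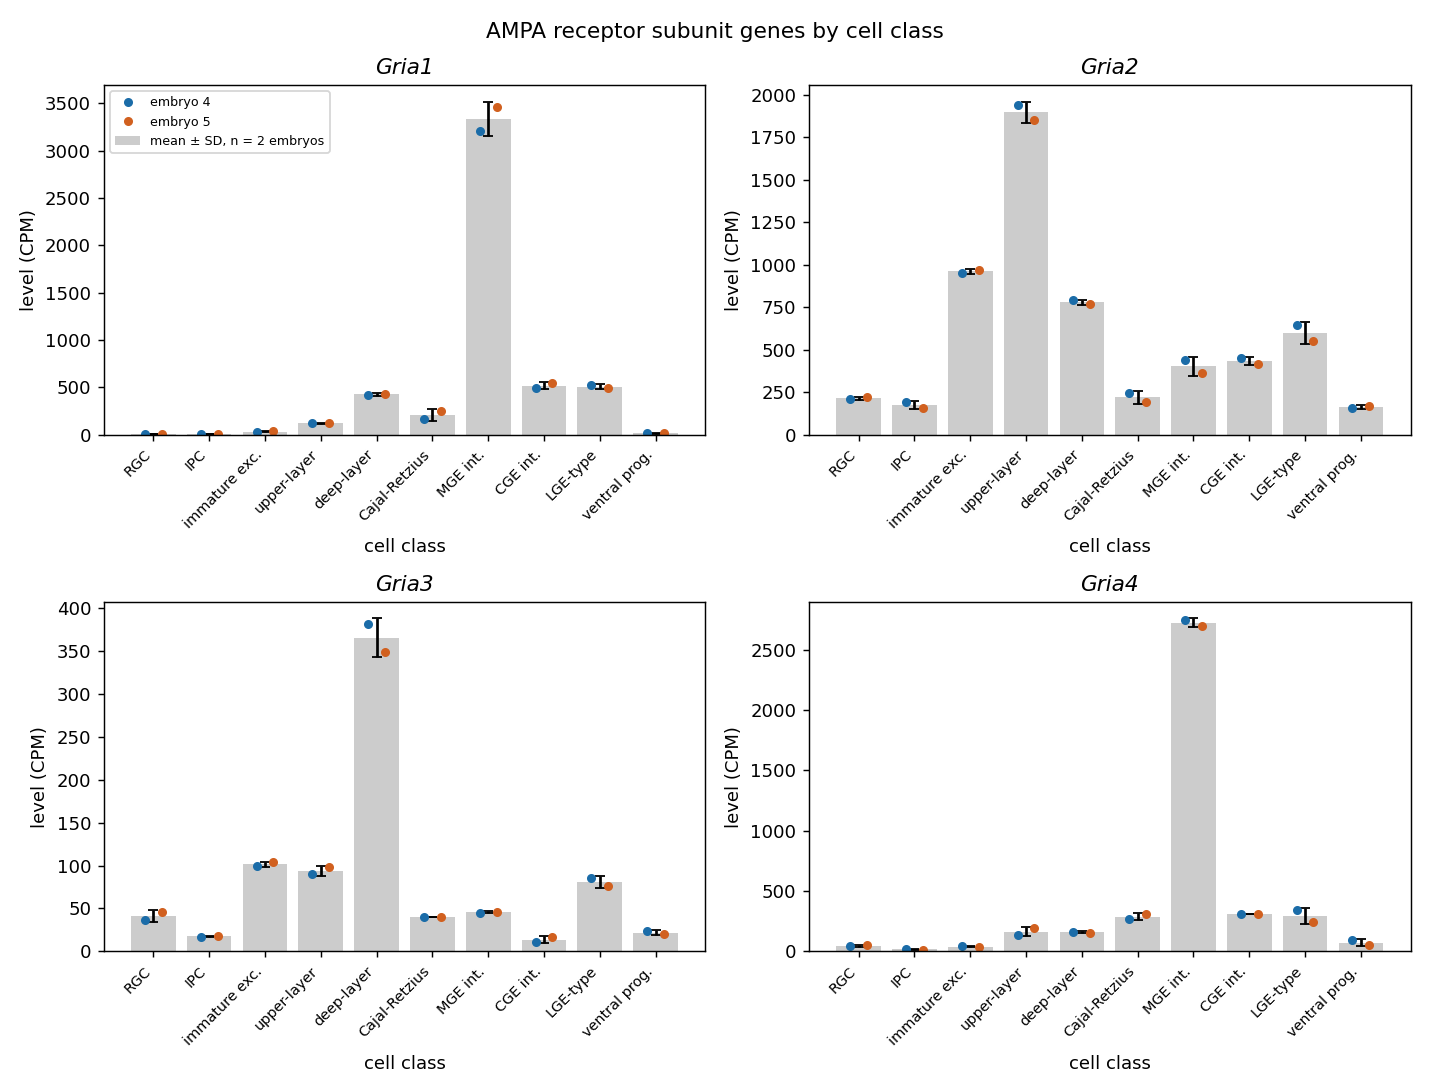
Levels of *Gria1* to *Gria4* in CPM by cell class, with bars for the mean, error bars for the SD of 2 embryos and points for each embryo; each panel has its own scale. *Gria1* and *Gria4* stand out in MGE interneuron-like cells at means of 3339 and 2722 CPM, *Gria2* in upper-layer neuron-like cells at 1898 CPM and *Gria3* in deep-layer neuron-like cells at 365 CPM.

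*Grik1* and *Grik2* were higher in RGC-like than in excitatory neuron-like cells, while *Grik3* went the other way. *Grik1*, which encodes GluK1, had 85.2 and 115 CPM in RGC-like cells and 2.44 to 6.15 CPM in the IPC-like and the 3 excitatory classes. It fell by 4.31 ± 0.30 on the log2 scale already in IPC-like cells (edgeR adjusted p = 6.59e-10). A UMI was found in 32.3% and 35.7% of RGC-like cells, and in 2.34% and 1.90% of immature excitatory neuron-like cells. MGE interneuron-like cells had more *Grik1*, 534 and 725 CPM, against 91.6 and 77.6 CPM in CGE interneuron-like cells (2.98 ± 0.24), and Cajal-Retzius-like cells had 61.4 and 57.5 CPM. Compared with excitatory neuron-like cells, the gene was higher in interneuron-like cells by 5.93 ± 0.20 and in Cajal-Retzius-like cells by 3.83 ± 0.40.

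*Grik2*, which encodes GluK2, was at 1351 and 1364 CPM in RGC-like cells and at 870 to 1079 CPM in IPC-like and immature excitatory neuron-like cells. In upper-layer and deep-layer neuron-like cells it had dropped to between 203 and 283 CPM. Excitatory neuron-like cells were lower than RGC-like cells by -1.55 ± 0.19, a mean over classes of which the immature one lay near the progenitors. The highest level was in MGE interneuron-like cells, 1707 and 1724 CPM, against 563 and 406 CPM in the CGE class (1.91 ± 0.26), and Cajal-Retzius-like cells, with 329 and 154 CPM, were lower than excitatory neuron-like cells by -0.995 ± 0.25.

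*Grik3*, which encodes GluK3, was at 1.94 and 1.48 CPM in RGC-like, 1.84 and 1.54 CPM in immature, 24.7 and 25.8 CPM in upper-layer, and 404 and 404 CPM in deep-layer neuron-like cells. The difference between the layers, 4.06 ± 0.16 on the log2 scale (edgeR adjusted p = 5.26e-13), was the largest of the 26 genes in that comparison. Interneuron-like cells had 275 to 526 CPM and were higher than excitatory neuron-like cells by 3.63 ± 0.11. The MGE class was lower than the CGE class by -0.69 ± 0.14. *Grik3* was higher in excitatory neuron-like than in RGC-like cells by 4.15 ± 0.25, but the value was -0.20 when no doublets were removed. Its lower level in Cajal-Retzius-like cells (-1.15 ± 0.33) turned to values of 0.21 to 0.78 under 3 other ways of choosing cells and clusters. Of these, 2 gave no deep-layer class, so that the excitatory mean lacked it. The call in Cajal-Retzius-like cells was also lost with at least 2000 detected genes (-0.38), at Leiden resolution 2 (-0.77) and with cells thinned to 2000 UMIs (-1.64).

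The high-affinity subunits differed in their range over the classes. *Grik4* (GluK4) had 36.6 and 67.9 CPM in Cajal-Retzius-like cells and 29.8 and 31.5 CPM in CGE interneuron-like cells, against 3.38 to 9.85 CPM in the excitatory classes. It was higher in Cajal-Retzius-like than in excitatory neuron-like cells by 2.87 ± 0.31, in IPC-like than in RGC-like cells by 1.197 ± 0.25, and in interneuron-like than in excitatory neuron-like cells by 1.59 ± 0.21, and lower in the MGE than in the CGE class by -1.26 ± 0.32. The interneuron-like call was lost at Leiden resolution 0.5, where the value was 0.66. *Grik5* (GluK5) had 38.2 to 86.6 CPM in all 10 classes, the smallest ratio of highest to lowest class mean among the 28 genes. It was called in 1 of the 6 comparisons, with 0.58 ± 0.07 in excitatory neuron-like against RGC-like cells.

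The kainate receptor partners *Neto1* and *Neto2*, which slow the closing of these channels, fell on different classes. *Neto1* had 462 and 521 CPM in MGE interneuron-like cells and 6.18 and 7.76 CPM in the CGE class. The difference of 6.19 ± 0.25 (edgeR adjusted p = 4.19e-12) was the largest of the 26 genes between these 2 classes, with a UMI in 46.7% and 53.3% of cells against 2.10% and 3.05%. *Neto2* had 524 and 552 CPM in deep-layer, 159 and 186 CPM in upper-layer and 59.5 and 73.2 CPM in RGC-like cells. It was higher in deep-layer than in upper-layer neuron-like cells by 1.71 ± 0.13 and in excitatory neuron-like than in RGC-like cells by 1.55 ± 0.11, and lower in Cajal-Retzius-like than in excitatory neuron-like cells by -1.99 ± 0.18.

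**Figure D4:**
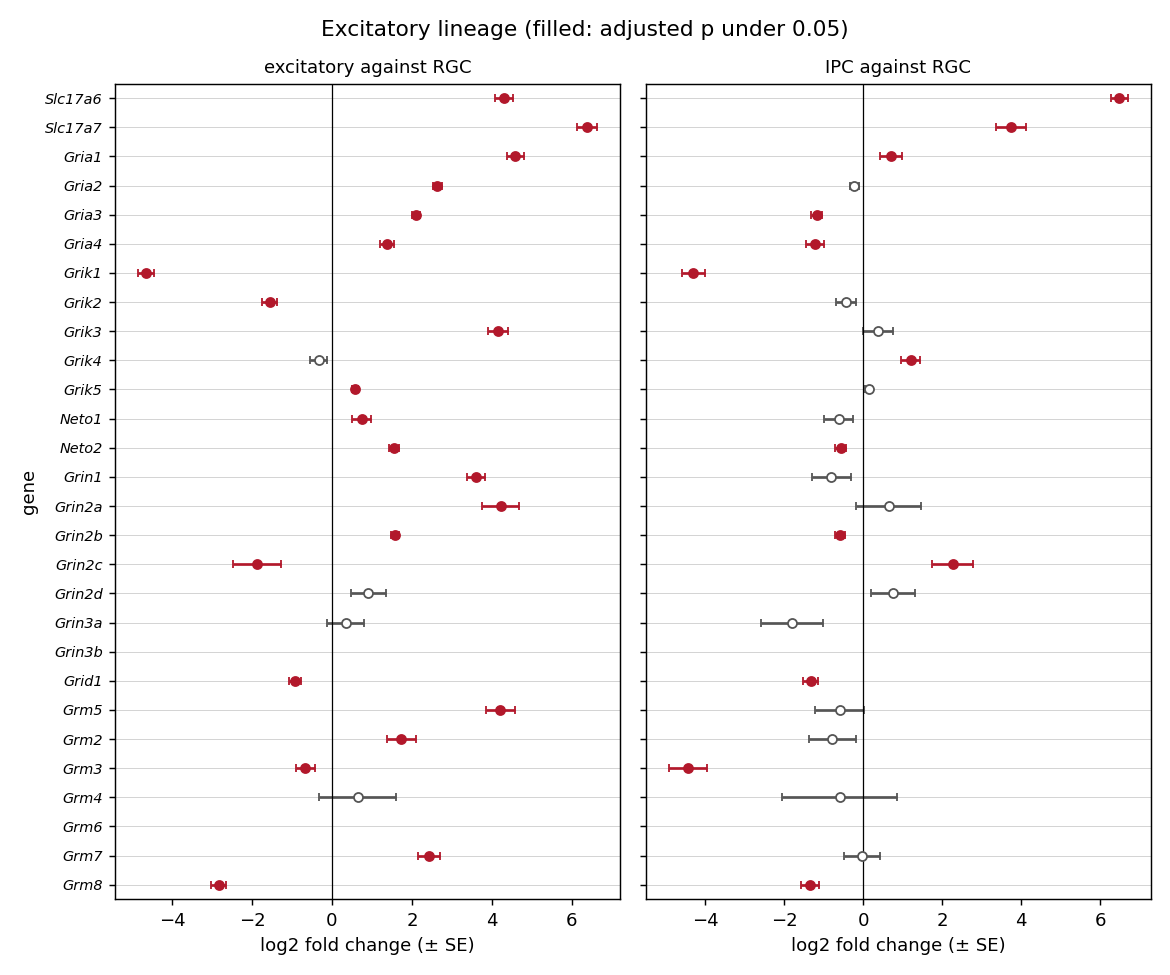
Log2 fold changes of the tested genes in excitatory neuron-like (left) and IPC-like (right) against RGC-like cells, with bars for the SE and filled points for an adjusted p under 0.05. *Slc17a7* is furthest to the right at 6.37 in the left panel and *Slc17a6* at 6.48 in the right panel, and *Grik1* lies at -4.64 and -4.31.

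Among the NMDA receptor genes, the obligatory subunit *Grin1* and the early subunit *Grin2b* were both lower in RGC-like than in upper-layer and deep-layer neuron-like cells. *Grin1* was at 0.62 to 1.48 CPM in RGC-like and IPC-like cells and at 2.91 and 3.08 CPM in immature neurons, then at 28.4 and 28.1 CPM in upper-layer and 34.1 and 34.6 CPM in deep-layer neuron-like cells. It was higher in excitatory neuron-like than in RGC-like cells by 3.60 ± 0.23 (edgeR adjusted p = 3.96e-11). Cajal-Retzius-like cells, at 44.2 and 82.8 CPM, were the highest class, 1.84 ± 0.21 above excitatory neuron-like cells, and interneuron-like cells were 1.15 ± 0.14 above them.

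*Grin2b* (GluN2B) was present in progenitors, at 134 and 134 CPM in RGC-like and 75.7 and 94.5 CPM in IPC-like cells (-0.59 ± 0.12), and was lower still in immature neurons, at 53.5 and 50.2 CPM. It then reached 532 and 634 CPM in upper-layer and 1203 and 1281 CPM in deep-layer neuron-like cells, a difference of 1.16 ± 0.11 between the layers. MGE interneuron-like cells had 947 and 993 CPM. In Cajal-Retzius-like cells, with 542 and 575 CPM, the fitted difference from the excitatory classes was 0.43 ± 0.10 because the mean is taken over log levels: the geometric mean of the excitatory classes was 334 CPM, but their arithmetic mean, 626 CPM, lay above the Cajal-Retzius-like level.

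*Grin2a* (GluN2A), which takes over from *Grin2b* at maturing synapses, was already at 37.4 and 32.6 CPM in upper-layer and 26.6 and 46.2 CPM in deep-layer neuron-like cells, against 0.87 and 0.88 CPM in RGC-like cells. The difference over the excitatory classes was 4.22 ± 0.46, and 0.23 with no doublets removed, where it was not called. Cajal-Retzius-like cells had 26.9 and 51.8 CPM, 1.17 ± 0.43 above the excitatory mean, a call that was lost in 3 of the other analyses. Among the cells without a name, which are not in that mean, the cluster led by *Tafa1* had more *Grin2a*, 76.6 and 87.0 CPM in 536 and 551 cells. This difference was not tested. *Grin2d* (GluN2D), a subunit of embryonic and interneuron receptors, had 23.0 and 17.4 CPM in CGE and 9.84 and 6.65 CPM in MGE interneuron-like cells, and 0.75 to 1.68 CPM in the excitatory classes, a difference of 3.27 ± 0.28. *Grin2c* was at 2.33 and 3.097 CPM in IPC-like cells against 0.468 and 0.675 CPM in RGC-like cells (2.27 ± 0.52), and at or under 0.92 CPM in each of the other 8 classes, few counts in all.

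*Grin3a* (GluN3A), a subunit that lowers calcium entry, had 57.9 and 60.0 CPM in LGE-type neuron-like and 26.9 and 32.2 CPM in Cajal-Retzius-like cells. In upper-layer neuron-like cells the embryos differed, with 7.98 CPM in embryo 4 and 49.7 CPM in embryo 5, against 2.70 and 2.56 CPM in deep-layer neuron-like cells. The log2 fold change of deep-layer against upper-layer cells was -3.40 ± 0.52, and between 1.37 and 1.85 under 3 other choices of cells and clusters, so its direction depended on how the classes were drawn. In the upper-layer sums, the 6 subplate markers were at 38.4 CPM in embryo 4 and 100.1 CPM in embryo 5, with 2 of the 6 at 0 in both embryos. *Nr4a2*, 1 of the 6, was at 23.8 and 83.6 CPM there. In deep-layer neuron-like cells the 6 summed to 1578 and 1629 CPM, mostly *Hs3st4* at 1508 and 1554 CPM, with *Nr4a2* at 51.9 and 58.6 CPM. The part of these markers in the differences between the layers was not tested. The difference of *Grin3a* between Cajal-Retzius-like and excitatory neuron-like cells was 2.20 ± 0.68, and the call was lost in 3 of the other analyses.

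*Grid1*, which encodes the delta receptor GluD1 that joins synapses through cerebellin proteins, was at 65.2 and 86.9 CPM in RGC-like and at 28.9 to 42.2 CPM in IPC-like and the 3 excitatory classes. It was lower in IPC-like than in RGC-like cells by -1.33 ± 0.20 and in excitatory neuron-like cells by -0.92 ± 0.15. It rose again in interneurons, to 223 and 238 CPM in the MGE class and 88.2 and 94.1 CPM in the CGE class, with 1.94 ± 0.13 for interneuron-like against excitatory neuron-like cells and 1.41 ± 0.21 for MGE against CGE.

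Among the metabotropic receptor genes, *Grm5* was high in MGE and *Grm8* in CGE interneuron-like cells, and *Grm2* in Cajal-Retzius-like cells. *Grm5* encodes mGlu5, a receptor coupled to phospholipase C. It had 1115 and 1228 CPM in MGE and 44.96 and 40.6 CPM in CGE interneuron-like cells, a log2 fold change of 4.85 ± 0.35 (edgeR adjusted p = 6.70e-09). In the excitatory lineage it was at 2.11 to 4.88 CPM up to immature neurons and then at 178 and 399.9 CPM in upper-layer and 213 and 276 CPM in deep-layer neuron-like cells, where the ranges of the layers overlapped (-0.18, not called). Cajal-Retzius-like cells, with 2.15 and 13.8 CPM, were lower than the excitatory classes by -3.34 ± 0.66.

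*Grm8*, a presynaptic receptor that lowers transmitter release, was the reverse of *Grm5* in interneurons, with 9.20 and 6.88 CPM in the MGE and 319 and 392 CPM in the CGE class (-5.39 ± 0.26, edgeR adjusted p = 3.09e-11). The CGE level came from a minority of cells, 21.0% (16.7 to 25.7) and 19.0% (15.3 to 23.3) with a UMI, against 3.49% (2.25 to 5.15) and 1.37% (0.63 to 2.59) of MGE interneuron-like cells. Cajal-Retzius-like cells had 79.7 and 182 CPM, 4.82 ± 0.26 above excitatory neuron-like cells, and RGC-like cells 29.7 and 33.4 CPM, from which IPC-like cells fell by 1.35 ± 0.23 and excitatory neuron-like cells by 2.83 ± 0.20. *Grm4*, another presynaptic receptor, had 19.1 and 23.7 CPM in CGE, 7.49 and 13.5 CPM in MGE interneuron-like and 5.39 and 9.21 CPM in Cajal-Retzius-like cells. It was at or under 0.31 CPM in each of the RGC-like, IPC-like and excitatory classes. Its differences were 6.41 ± 0.39 for interneuron-like and 5.21 ± 0.79 for Cajal-Retzius-like against excitatory neuron-like cells, and the second call was lost with cells thinned to 2000 UMIs (4.54).

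*Grm7*, also presynaptic, had 82.8 to 104 CPM in the 2 interneuron-like classes, 30.5 and 41.4 CPM in deep-layer, and 21.0 and 14.5 CPM in upper-layer neuron-like cells. It was higher in interneuron-like than in excitatory neuron-like cells by 2.18 ± 0.17, in excitatory neuron-like than in RGC-like cells by 2.43 ± 0.28, and in deep-layer than in upper-layer cells by 1.09 ± 0.26, and 0.28 without the clusters whose leading markers tied. *Grm2* and *Grm3* encode receptors that inhibit adenylyl cyclase. *Grm2* had 35.5 and 38.0 CPM in Cajal-Retzius-like cells and at most 5.14 CPM in the other classes fitted jointly. Its level in Cajal-Retzius-like cells was 4.01 ± 0.29 above excitatory neuron-like cells (edgeR adjusted p = 3.12e-09). Within the excitatory lineage *Grm2* was lower in deep-layer than in upper-layer neuron-like cells (-2.46 ± 0.38) and higher in excitatory neuron-like than in RGC-like cells (1.74 ± 0.36).

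*Grm3* had 68.7 and 50.2 CPM in MGE against 6.74 and 6.39 CPM in CGE interneuron-like cells (3.25 ± 0.39), 41.1 and 46.5 CPM in deep-layer against 8.11 and 5.17 CPM in the upper-layer class (2.80 ± 0.27), and 9.83 and 16.9 CPM in RGC-like against 0.743 and 0.372 CPM in IPC-like cells (-4.44 ± 0.48). Its call between excitatory neuron-like and RGC-like cells (-0.67 ± 0.24) was not shared by both embryos, with 0.03 in embryo 4 and -1.20 in embryo 5, and the arithmetic mean of the excitatory classes, 17.2 CPM, lay above the 13.4 CPM of RGC-like cells.

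**Figure D5:**
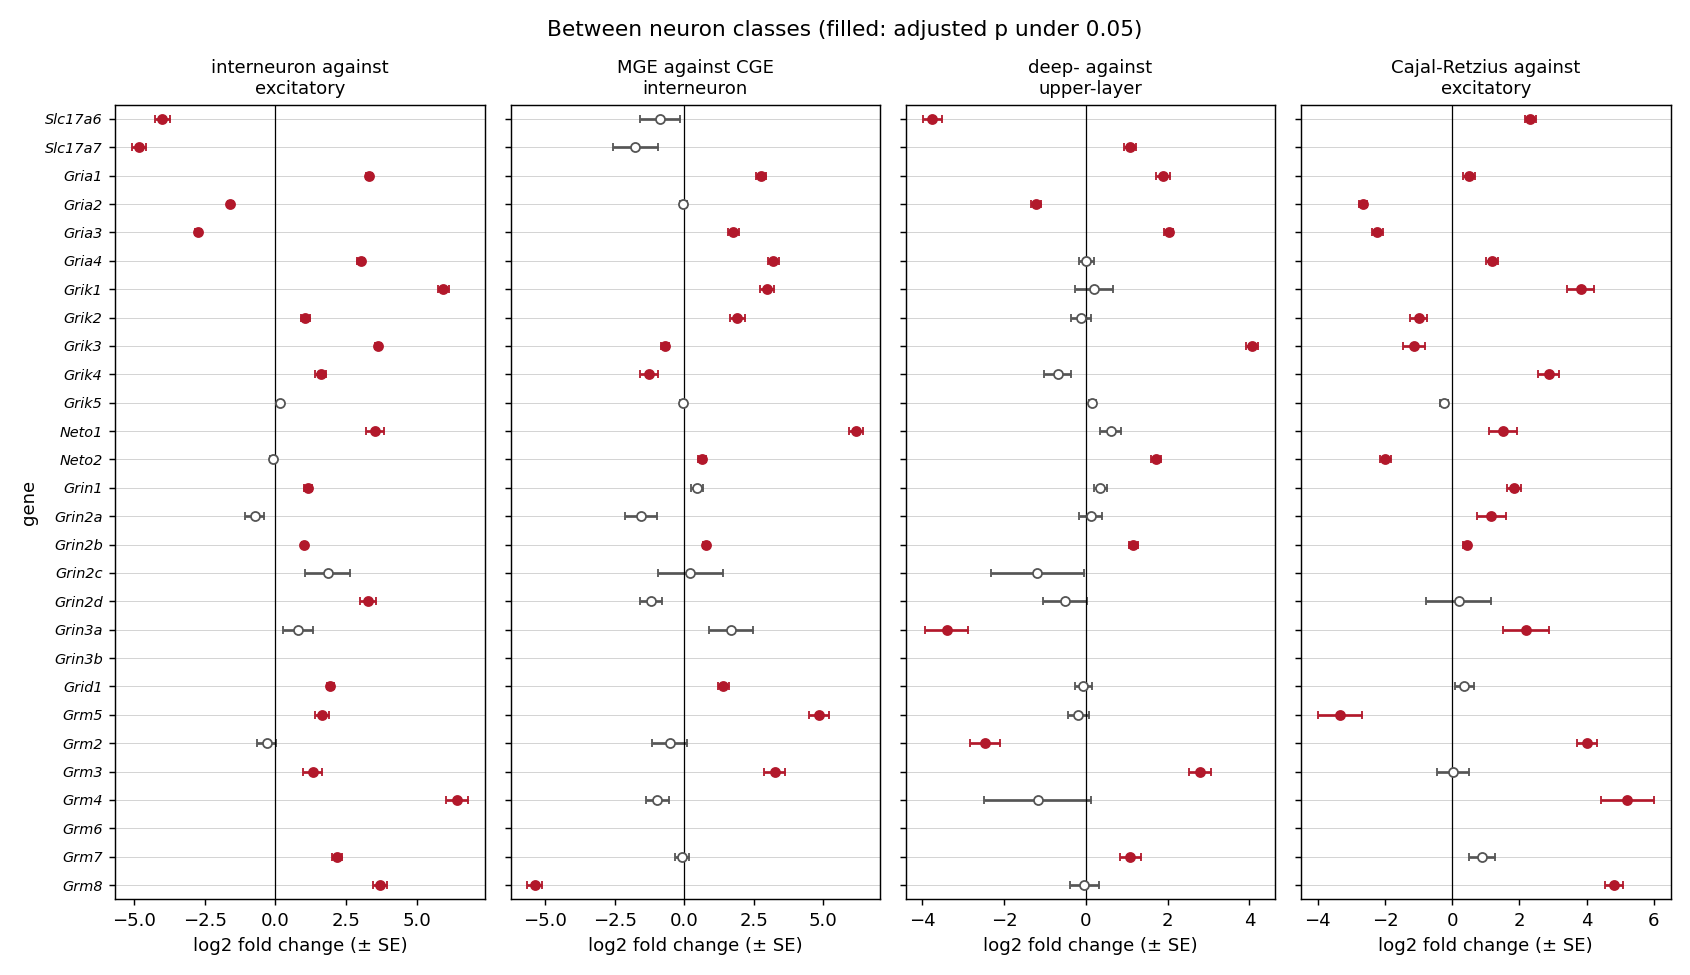
Log2 fold changes of the tested genes in 4 comparisons between neuron classes, with bars for the SE and filled points for an adjusted p under 0.05; genes with no UMI on 1 side have no point. *Neto1* at 6.19 and *Grm8* at -5.39 mark the ends of the MGE against CGE panel, and *Grik3* at 4.06 the right end of the deep- against upper-layer panel.

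Markers of other cells were read beside these results. The 8 genes of the LGE-type list summed to 4234 and 5696 CPM in CGE interneuron-like cells. They summed to 181 and 128 CPM in MGE interneuron-like cells, with 1 gene at 0, and to 3600 and 5708 CPM in LGE-type neuron-like cells themselves. Most of the sum in the CGE class came from *Meis2* (2084 and 3103 CPM) and *Pbx3* (1858 and 2275 CPM). The list also reached 2527 to 3393 CPM in RGC-like, IPC-like and immature excitatory neuron-like cells, again mostly *Meis2*. In each embryo *Pbx3*, *Tshz1* and *Penk* were higher in the CGE than in the LGE-type class, and *Isl1*, *Ebf1*, *Zfp503* and *Six3* were lower. *Meis2* was higher in embryo 4 and lower in embryo 5. *Isl1*, which defines striatal neurons of that origin, was at 0.562 and 0.457 CPM in the CGE class, against 119 and 168 CPM in the LGE-type class. The part of these markers in the MGE against CGE results was not tested. The CGE interneuron-like class was 1 cluster, in which *Adarb2* of the CGE list and *Pbx3* of the LGE-type list stood among the 10 leading genes.

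The other genes of the glutamate pathway, in 3 lists of 46 genes, were read in the same tests. Among the postsynaptic scaffold genes, 16 of 18 tested were higher and 1 lower in excitatory neuron-like than in RGC-like cells, where 72.0% of all genes were called (36.6% higher, 35.5% lower), with a median of 1.27 against 0.02 over all genes; *Shank1*, a scaffold that ties receptors to the cytoskeleton, rose by 3.095 ± 0.13, *Dlg2* by 2.92 ± 0.17, and *Homer2* was lower by -0.88 ± 0.09. In IPC-like cells 7 were higher and 4 lower, with 45.4% of all genes called. In interneuron-like against excitatory neuron-like cells 11 were higher and 4 lower (41.5% of all genes called), led by *Dlgap2* (1398 and 1475 CPM against 36.9 and 37.3 CPM, 4.83 ± 0.15) and *Grip1*, which binds GluA2 and GluA3 (2.46 ± 0.08), while *Homer2* (-0.54 ± 0.12) and *Dlg4*, the gene of PSD-95 (-0.51 ± 0.07), were lower. MGE were higher than CGE interneuron-like cells in 7 scaffold genes and lower in 2 (12.9% of all genes called), with *Dlgap1* at 3.48 ± 0.19 and *Dlgap3* at -1.74 ± 0.19. Deep-layer neuron-like cells were higher than upper-layer ones in 6 and lower in 3 (28.5% of all genes called). In Cajal-Retzius-like against excitatory neuron-like cells 4 were higher and 9 lower (37.1% of all genes called), with *Homer2* at 3.40 ± 0.11 and *Dlgap1* at -2.94 ± 0.26.

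Of 12 tested AMPA receptor auxiliary genes, 8 were higher and 2 lower in excitatory neuron-like than in RGC-like cells (72.0% of all genes called), with *Shisa6* at 5.19 ± 0.15 and *Cacng5* at -2.69 ± 0.24, and 4 were higher and 4 lower in IPC-like cells (45.4% of all genes). *Cacng3*, which encodes a protein that carries AMPA receptors to the membrane, had 120.4 and 128 CPM in MGE and 2.25 and 0.457 CPM in CGE interneuron-like cells (6.67 ± 0.54). It was one of 4 genes called higher in the MGE class, where 6.17% of all genes were. In deep-layer against upper-layer neuron-like cells 7 were higher and 1 lower (28.5% of all genes called), with *Gsg1l* at 3.16 ± 0.19 and *Cnih3* at 2.52 ± 0.21. In interneuron-like against excitatory neuron-like cells 3 were higher and 5 lower (41.5% of all genes called), and in Cajal-Retzius-like cells 4 and 5 (37.1%).

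The uptake and metabolism list, 12 genes tested, showed no common direction, with 5 higher and 5 lower in excitatory neuron-like than in RGC-like cells, near the 36.6% and 35.5% of all genes. *Slc1a3*, the glutamate uptake carrier GLAST of radial glia, fell from 411 and 413 CPM in RGC-like cells to 33.0 and 29.6 CPM over the excitatory classes (-3.74 ± 0.13) and to 71.7 and 84.2 CPM in IPC-like cells (-2.34 ± 0.17), where 3 genes of the list were higher and 5 lower (45.4% of all genes called). *Slc1a2*, the carrier GLT-1, was higher in interneuron-like (1.31 ± 0.14) and Cajal-Retzius-like cells (2.29 ± 0.21) than in excitatory neuron-like cells and in deep-layer than in upper-layer neuron-like cells (1.97 ± 0.21). Between MGE and CGE interneuron-like cells 2 genes were called, both lower (6.75% of all genes were), *Slc1a3* by -2.03 ± 0.45 and *Slc1a2* by -0.76 ± 0.22.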

How the data were processed

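Single-cell libraries (10x Genomics 3′ v3.1) of 2 embryos were analysed as the counts the authors deposited: raw UMI counts per gene and cell from Cell Ranger (version 7.0.0 per the labels, 7.1.0 per the file headers) on mm10, filtered to called cells. Whether intronic reads were counted is not given in the sources used here. The libraries held 124318613 and 117679925 UMIs in 12825 and 12289 barcodes, and other E16.5 embryos were not analysed here. Cells with under 1000 detected genes, over 10% mitochondrial counts or the highest Scrublet doublet scores were removed, leaving 9932 and 10416 cells with median depths of 10029.5 and 8830 UMIs; 26 cell barcodes occurred in both libraries. Counts were scaled to 10000, log-transformed and clustered (scanpy 1.11.5; 2000 variable genes, 30 components, 20 neighbours, Leiden resolution 1) without the 28 genes, the pathway genes and their families. Of 28 clusters, 22 were named from marker lists by a rule set after the clusters were seen; 53.7% of deep-layer neuron-like cells lay in clusters with no marker of the class among the 10 leading genes. UMIs were summed per class and embryo, and edgeR 4.0.16 (TMM, filterByExpr, quasi-likelihood test, Benjamini-Hochberg adjustment) was fitted jointly to 10 classes; excitatory and interneuron-like contrasts are means of log coefficients of their classes. Equal embryo numbers mark sums from the same animal, and their deviations from the class means correlated at 0.0866 to 0.228 over the comparisons. Shares of cells carry exact binomial 95% intervals, for counting error only; floors are 3 counts. The edgeR fit, without the filtering, clustering and naming of cells, was tested on simulated counts for IPC-like against RGC-like cells (14772 genes). All classes shared 1 mean per gene, sums were drawn independently, and 200 genes were changed. There 86.6% of 2-fold and 100% of 4-fold changes were recovered and 6.12% of calls were unchanged genes. In the data 45.4% of all genes were called, so these rates need not hold there. Genes and lists were chosen with earlier results of these data known; all 28 genes are described, and pathway genes were named for the largest changes called in each direction. Promoter windows and names are from RefSeq (GRCm38.p6). DESeq2 1.42.0 served as an alternative.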

Additional observations from a re-analysis of the deposited data

Results flagged for a closer look

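In 2 cases, a gene in a class outside the 6 comparisons was, in both embryos, at 2 or more times the level of every class compared. *Grm7* reached 409.8 CPM in LGE-type neuron-like cells as the mean of 2 embryos (482 and 338 CPM), against 83.2 and 104 CPM in CGE interneuron-like cells, the highest class compared. *Grm3* reached 470.3 CPM in pericyte-like cells (524 and 417 CPM, from 51 and 45 cells), against 68.7 and 50.2 CPM in MGE interneuron-like cells. Neither class entered a test, and neither difference was tested.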

How the results depend on the processing

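The 88 calls with a log2 fold change of at least 1 in either direction were followed, and smaller ones, such as *Gria1* and *Grin2b* in IPC-like cells and *Grik3* in MGE against CGE, were not. Of their 1265 values under other settings, 1240 kept their direction and their side of the threshold, 17 lost significance and 8 changed direction; the cause was not tested. With no doublets removed, *Grik3* in excitatory neuron-like against RGC-like cells became -0.20, *Slc17a7* in IPC-like against RGC-like cells -0.28, *Grin3a* in deep-layer against upper-layer cells 1.55 and *Grik3* in Cajal-Retzius-like cells 0.21. *Grin3a* between the layers was also 1.85 with at least 2000 detected genes and 1.37 at Leiden resolution 2, and *Grik3* in Cajal-Retzius-like cells 0.78 with at most 5% mitochondrial counts and 0.56 at resolution 0.5. The number of genes called moved by over 1.5 times in 3 cases: 20 for IPC-like cells with no doublets removed (13 in the main analysis), 19 between the layers with at least 2000 detected genes (12), and 12 for Cajal-Retzius-like cells with each cell thinned to 2000 UMIs (20). Over all genes, thinning gave 1951 calls for Cajal-Retzius-like cells (5909), 4429 for IPC-like (7230), 4067 for interneuron-like (6603), 2299 between the layers (4532) and 1141 for MGE against CGE (2057), where at least 2000 genes gave 1084 and resolution 2 gave 1185. With the embryo number as a replicate block, 23, 14, 21, 12, 16 and 20 genes were called, against 22, 13, 20, 12, 14 and 20 without the block, in the order excitatory, IPC-like, interneuron-like, layers, MGE against CGE and Cajal-Retzius-like. Without 1 embryo no spread is left, so those values have no test. Some settings gave no deep-layer class (5% mitochondrial counts, resolution 0.5) or no CGE class (resolution 0.5, and tied clusters left unnamed, a choice made after seeing the data), so comparisons between those classes could not be run and the excitatory or interneuron-like means lacked them. The 61 and 67 Cajal-Retzius-like cells limit the precision there.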

Other observations

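LGE-type neuron-like cells, which entered no comparison, had 22 of the 28 genes at 10 CPM or more in both embryos, the highest count of the 10 classes. *Grin3a* was at 57.9 and 60.0 CPM, *Grid1* at 311 and 181 CPM and *Grm8* at 175 and 158 CPM there. Ventral progenitor-like cells had 78.3 and 115 CPM of *Grik3* and 31.6 and 27.4 CPM of *Grin3a*, against 1.94 and 1.48 CPM and 5.82 and 3.85 CPM in RGC-like cells. These differences were not tested.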
